A study of Mus musculus with 6 samples.

Results

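The genes described here are 10 p53 target genes of signalling and cell death, Phlda3, Trp53inp1, Perp, Ei24, Gdf15, Zmat3, Dgka, Epha2, Abhd4 and Pidd1. They were taken from the deposited gene table as the rows whose gene name equals one of these symbols. All 10 symbols were found among the 54532 genes of the table, and all 10 were among the 15144 genes of mean FPKM at least 0.5 that were tested. FPKM counts fragments for each kilobase of a gene relative to the size of the library, so that levels of different genes are on a per-length scale. The RNA came from haploid mouse embryonic stem cells of strain 129SV, which carry 1 set of chromosomes. One group was wild type (WT, 3 libraries) and the other was p53-deficient (3 libraries), and the series sets the p53-deficient cells against WT in a study of cell death and of the return of haploid cells to a diploid state. For the p53-deficient group the sample titles read P53ki, the genotype field P53 - and the series design a knockout, and neither the allele nor the number of lines or clones is given. The labels name no treatment, and no label says that the libraries of a group came from separate cultures, so the p-values reflect library-to-library spread, and that spread may be technical only.

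p53 is a transcription factor that is stabilised by DNA damage and other stress and binds pairs of a short decamer, the p53 response element, near its target genes. Apart from genes of cell cycle arrest and of the mitochondrial death pathway, its targets include secreted factors, inhibitors of growth signalling, membrane proteins and caspase scaffolds. Mouse embryonic stem cells divide fast with a short G1 phase and carry much p53, part of it outside the nucleus.

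RNA of all 10 genes was lower in the p53-deficient cells, by amounts that differed widely between the genes. Phlda3, Trp53inp1 and Gdf15 kept 7.66%, 7.80% and 6.79% of their mean WT FPKM. Perp and Zmat3 kept 14.4% and 16.4%, Ei24 and Abhd4 36.8% and 37.6%, Pidd1 46.7%, Dgka 53.4% and Epha2 77.3%. Each of the 10 passed the test (limma on log2(FPKM + 1), adjusted p under 0.05 over all tested genes), against a background of 4733 tested genes called lower, or 31.3%. In all 10 genes each p53-deficient library lay below each WT library, which was so for 5105 of the tested genes, or 33.7%. On the log2(FPKM + 1) scale 7 of the 10 fell by 2-fold or more, as did 954 tested genes, or 6.3%. The median log2 fold change was -1.76 over the 10 genes and 0.03 over all genes tested. Genes called higher numbered 5341, or 35.3%, and after scaling by the median ratio the split was 5657 lower and 4211 higher, while all 10 genes were called lower under both. For 1 gene in 3 libraries against 3, the smallest p of an exact two-sided permutation test is 0.1, the value each of the 10 reached, so the calls rest on the variance that limma shares across genes.

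**Figure D1:**
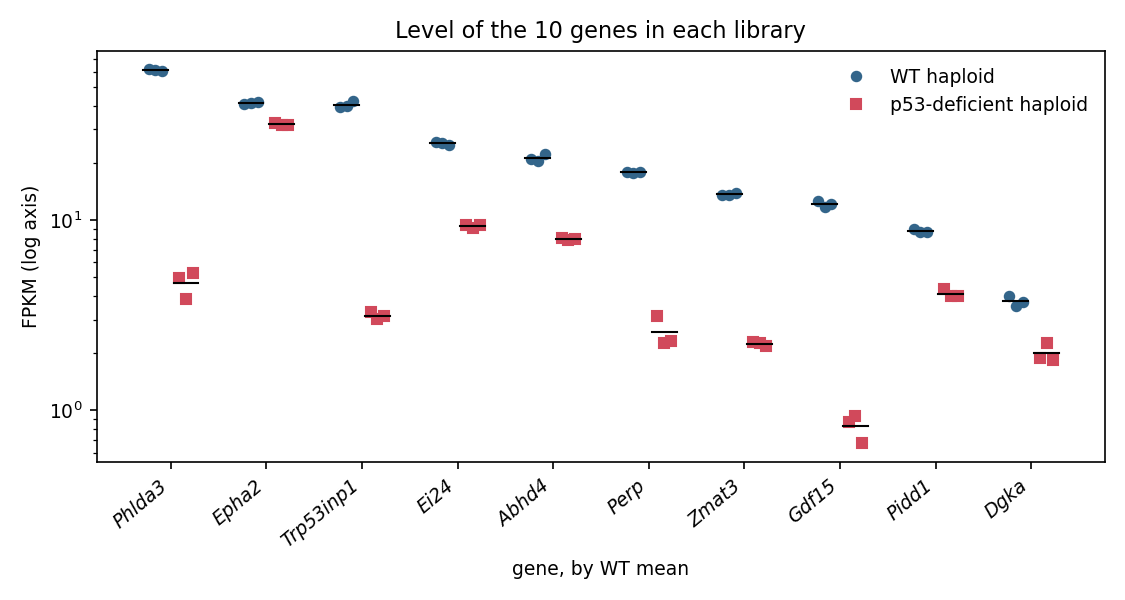
FPKM (log axis) of each of the 10 genes in the 3 WT libraries (circles) and the 3 p53-deficient libraries (squares), with group means as lines, ordered by WT mean. The groups are apart in every gene, widely for Phlda3 (mean 61.4 against 4.70) and narrowly for Epha2 (41.2 against 31.9).

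Depth and labels were checked on the same libraries. The WT libraries held 17065841 to 20331905 reads in genes, and the p53-deficient libraries held 11536412 to 21218976. RNA of Trp53, the gene of p53 itself, was listed at 64.5, 69.8 and 69.6 FPKM in WT and at 9.71, 9.71 and 9.98 FPKM in the p53-deficient libraries, in the direction of the labels. All 10 stem cell markers were read in every library, and their summed level was 3452 to 3513 FPKM in WT and 2476 to 2542 FPKM in p53-deficient libraries. Most of that fall lay in Dppa5a, which went from 2007 to 1075 FPKM. Of the 10 markers 5 were lower, 4 higher and 1 did not pass, with a median log2 change of -0.08. After median-ratio scaling 6 were lower and 2 higher. Fibroblast markers moved with the genotype: 29 of 32 were tested, all 29 were lower, and their list summed to 1861 to 1880 FPKM in WT against 438 to 460 FPKM. The 10 defining fibroblast markers summed to 420 to 431 FPKM in WT and 63.5 to 67.0 FPKM in the p53-deficient libraries, and none of them was at 0 in any library. Their sum kept 15.3% of its WT level and Trp53 kept 14.4%, and whether these falls are linked was not tested. The 4 Y-linked genes summed to 3.51 to 3.94 FPKM against 0.330 to 0.395 FPKM, and the labels give no sex. Behind these levels were 1161 reads in WT and 103 in the p53-deficient group. The fibroblast list was drawn up as markers of feeder cells, on which stem cells can be grown. Which cells gave the fibroblast and Y-linked reads was not tested. In bulk RNA, fewer cells of a type and less RNA per cell cannot be told apart.

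Promoter sequence was taken from RefSeq (mouse build GRCm38.p6), in windows of 250 bases before to 50 bases after each annotated start. Windows were found for 7 of the 10 genes, 12 windows in all, and not for Trp53inp1, Perp and Zmat3. The p53 response element decamer, which reads alike on both strands, was present without mismatch in 2 of the 12 windows, those of Ei24 and of the downstream Abhd4 start, and in 8.36% of 32851 windows of the same kind. A pair of decamers with no spacer and up to 2 mismatches was present in none of the 12, and in 0.326% of all windows. The shorter motif CATG, which lies inside some decamers, was in 6 of the 12 windows and in 61.1% of all. The 2 decamers are shown because they are the matches among the 10 genes, next to those of Cdkn1a and Mdm2, well-known p53 targets, for comparison. The lines run 5′ to 3′ on the gene's strand, and capitals mark the decamer, or the pair of decamers in Cdkn1a.
Ei24, chr9:36797325-36797354, minus strand: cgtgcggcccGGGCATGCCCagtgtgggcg
Abhd4, chr14:54259274-54259303, plus strand: cgacccggcaGGGCTTGTTTactatggctg
Cdkn1a, chr17:29090923-29090952, plus strand: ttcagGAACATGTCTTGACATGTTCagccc
Mdm2, chr10:117710925-117710954, minus strand: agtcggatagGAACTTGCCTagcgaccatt
The Ei24 decamer begins 10 bases before the RefSeq start and the Abhd4 decamer at base 2 of that transcript. A match is a match of letters only, and a window without one says nothing of binding elsewhere in the gene.

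Phlda3 and Gdf15 were among the 3 genes that kept the least of their level, and both have a RefSeq window without the decamer. Their 250 bases before the start are shown for that contrast, with CATG in capitals where it occurs.
Phlda3, chr1:135765835-135766084, plus strand: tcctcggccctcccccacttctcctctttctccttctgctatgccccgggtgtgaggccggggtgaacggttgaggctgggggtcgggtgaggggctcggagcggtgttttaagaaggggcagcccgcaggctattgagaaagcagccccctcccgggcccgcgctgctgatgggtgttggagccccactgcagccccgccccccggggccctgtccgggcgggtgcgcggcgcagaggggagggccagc
Gdf15, chr8:70632457-70632706, minus strand: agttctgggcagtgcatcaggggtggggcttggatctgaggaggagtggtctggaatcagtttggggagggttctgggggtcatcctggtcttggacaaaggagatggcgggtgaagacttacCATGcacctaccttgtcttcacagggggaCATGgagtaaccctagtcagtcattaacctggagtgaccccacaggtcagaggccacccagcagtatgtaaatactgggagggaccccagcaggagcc

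Phlda3 (ENSMUSG00000041801, chr1:135766119-135769136 in mm10, plus strand) is a brake on growth signalling. It encodes a small protein that is little more than a pleckstrin homology domain and competes with the kinase AKT for membrane lipids. It stood at 62.0, 61.4 and 60.8 FPKM in WT and at 4.97, 3.83 and 5.31 FPKM in p53-deficient libraries. The WT libraries lay within a narrow band, and the lowest of them was 11.5-fold above the highest p53-deficient library. The change was -3.46 on the log2(FPKM + 1) scale (SE 0.0954, limma adjusted p = 5.41e-07), rank 28 from the lowest among all tested genes. In rebuilt reads, 5509 in WT and 378 in the p53-deficient group, the WT level was 12.9-fold higher after allowing for depth (95% exact interval 11.6 to 14.4, counting error only).

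Of its paralogs, which share the domain, both were higher. Phlda1 rose from 4.67 ± 0.125 to 6.35 ± 0.315 FPKM (SD, n = 3 libraries) and Phlda2, an imprinted gene of the placenta, from 3.15 ± 0.378 to 5.40 ± 0.288 FPKM, with limma adjusted p = 3.75e-04 and 3.80e-04. Of 20 genes of the AKT pathway 19 were tested, and 7 were lower, 7 higher and 5 did not pass, with a median of -0.02. After median-ratio scaling the split was 9 lower and 6 higher, and after quantile normalisation 7 lower and 9 higher. The 2 genes lower by 2-fold or more were Inpp5d, a lipid phosphatase of blood cells known as SHIP1 (34.2 to 4.42 FPKM, log2 change -2.70), and Foxo3, a transcription factor that AKT holds out of the nucleus (14.3 to 3.24 FPKM, -1.85). Akt1 went from 24.7 to 16.2 FPKM (-0.57) and Akt2 from 12.6 to 18.8 FPKM (0.54), both past the test. Pik3r2, a regulatory subunit of PI3-kinase, was the most abundant gene of the list that did not pass, at 12.8 and 12.6 FPKM, though it was called lower after median-ratio scaling.

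Gdf15 is a secreted ligand of the TGF-beta superfamily that is made under stress and acts on the brainstem receptor GFRAL. Gdf15 (ENSMUSG00000038508, chr8:70629393-70632456, minus strand) read 12.6, 11.8 and 12.2 FPKM in WT and 0.873, 0.934 and 0.673 FPKM in the p53-deficient libraries. No other gene of the 10 was as low in the p53-deficient group, where 34, 20 and 22 reads were behind the values. Over 1297 WT reads and 76 p53-deficient reads the WT level was 15.1-fold higher after allowing for depth (95% exact interval 12.0 to 19.3, counting error only). On the log2(FPKM + 1) scale this was a change of -2.85 (SE 0.0657, limma adjusted p = 2.69e-07), and the pseudocount of 1 lies above the p53-deficient level, so this scale understates the change. With a fit on rebuilt reads (voom in limma) it was -3.90, beyond every other gene of the 10 on that scale.

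Gfral was listed at 0 in all 6 libraries, and Ret, its co-receptor, was below the filter at 0.214 and 0.292 FPKM. The rest of that list, targets and factors of the ATF4 and CHOP stress pathway, which can also raise Gdf15, had 8 tested genes. All 8 were lower, 5 of them by 2-fold or more, with a median of -1.08. Nupr1, a small chromatin-binding stress protein, went from 31.9 ± 1.09 to 1.92 ± 0.199 FPKM, Sesn2, a leucine sensor that is also a p53 target, from 56.5 ± 1.57 to 10.4 ± 0.761 FPKM. Chac1, which degrades glutathione, went from 19.5 ± 1.78 to 4.96 ± 0.499 FPKM and Trib3, a pseudokinase that binds AKT and ATF4, from 25.7 ± 1.05 to 11.4 ± 0.417 FPKM. Atf4 itself, the factor at the head of the pathway, changed by -0.80, from 145 to 82.7 FPKM, and Ddit3, which encodes CHOP, by -1.05, from 16.3 to 7.35 FPKM. Whether these changes bear on Gdf15 was not tested.

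Epha2, a receptor tyrosine kinase for ephrin-A ligands on neighbouring cells, changed the least of the 10. Epha2 (ENSMUSG00000006445, chr4:141301240-141329384, plus strand) read 40.7, 41.2 and 41.7 FPKM in WT and 32.3, 31.5 and 31.8 FPKM in p53-deficient libraries. The groups did not overlap, and the libraries of each group lay close together. The log2 change was -0.36 (SE 0.0228, limma adjusted p = 1.80e-05), and the WT read level was 1.31-fold higher (95% exact interval 1.27 to 1.35, counting error only). Among tested genes Epha2 ranked 1430 by WT level and 1994 by p53-deficient level, and it was the most abundant of the 10 in the p53-deficient cells.

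Other Eph receptors went both ways. Of 13 listed, 7 were tested, 4 were lower, 2 higher and Epha7 did not pass (0.477 and 0.592 FPKM), none changed by 2-fold on the log2(FPKM + 1) scale, and quantile normalisation gave 2 lower and 3 higher, Epha7 among them. Ephb4, the receptor of ephrin-B2, went from 15.5 to 11.3 FPKM (-0.42), Epha4 from 9.21 to 7.66 FPKM (-0.24) and Epha1 from 0.941 to 2.39 FPKM (0.80). Of the 8 ephrins, the membrane-bound ligands of these receptors, 6 were lower and 1 higher, with a median of -0.65 with 5 lower after quantile normalisation and none higher after median-ratio scaling. Efnb1 fell from 5.29 ± 0.0741 to 1.87 ± 0.301 FPKM (log2 change -1.14, limma adjusted p = 2.96e-05) and Efna5 from 1.31 to 0.331 FPKM, while Efna4, at 8.34 and 9.33 FPKM, did not pass. Efna1, a ligand that EPHA2 binds tightly, fell from 0.961 to 0.353 FPKM (-0.54). The p53-deficient levels of Efna1 and Efna5 lay under the filter of 0.5 FPKM, so both were tested only because of their WT levels.

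Dgka encodes a diacylglycerol kinase, an enzyme that turns the lipid messenger diacylglycerol into phosphatidic acid. Dgka (ENSMUSG00000025357, chr10:128720134-128744855, minus strand) was the least abundant of the 10 in WT, at 4.0, 3.54 and 3.71 FPKM, and stood at 1.90, 2.27 and 1.84 FPKM in p53-deficient libraries. The groups did not overlap, and the second p53-deficient library came nearest to WT. The log2 change was -0.66 (SE 0.0725, limma adjusted p = 2.34e-04). Over 105 bases, or 2.2% of its exon length, Dgka overlaps Pmel on the opposite strand, a pigment cell gene that went from 1.65 to 4.74 FPKM, and the kit is not stated to mark strand, so reads of that stretch cannot be parted. Of 9 other kinases of the family 5 were tested, with 3 lower, 1 higher and a median of -0.19, and 4 were lower and none higher after median-ratio scaling. Dgkq, at 2.96 and 2.48 FPKM, did not pass. It was called lower after median-ratio scaling (limma adjusted p = 0.0202), with voom (0.00333) and without the second WT library (0.0484). Dgkh fell from 2.04 to 0.550 FPKM (-0.97), Dgkz from 8.84 to 6.33 FPKM (-0.42), and Dgke rose from 4.39 to 5.18 FPKM (0.20), a call lost after median-ratio scaling.

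**Figure D2:**
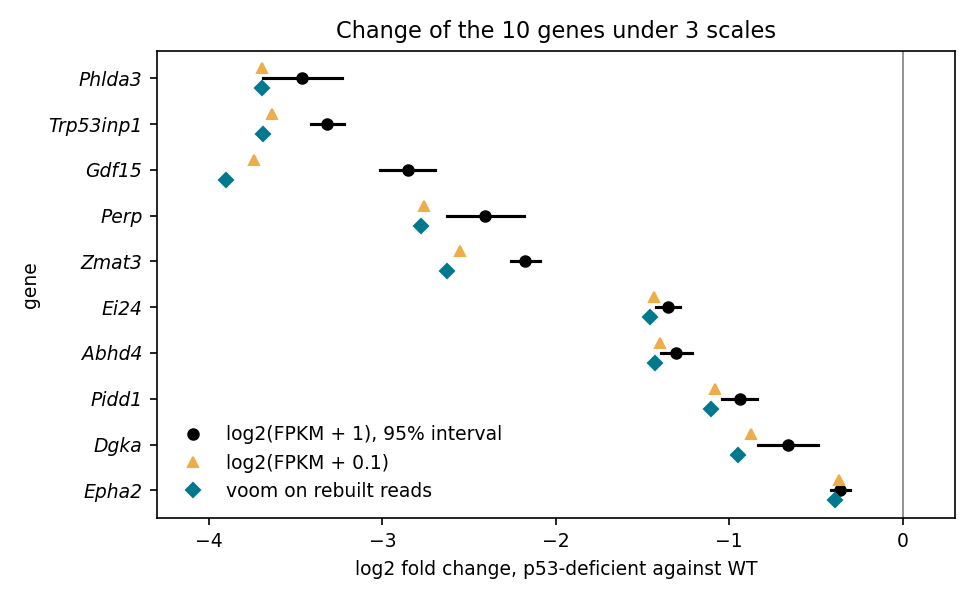
Log2 fold change of each gene, p53-deficient against WT, on log2(FPKM + 1) with its 95% interval (circles and bars), on log2(FPKM + 0.1) (triangles) and from voom on rebuilt reads (diamonds). Every value lies below 0, and Gdf15 moves the most between scales, from -2.85 to -3.90.

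Trp53inp1 and Zmat3 act on p53 itself or on RNA. Trp53inp1 (ENSMUSG00000028211, chr4:11156431-11174379, plus strand) encodes a stress protein that works with the kinase HIPK2 in the phosphorylation of p53 and, outside the nucleus, binds LC3-family proteins in autophagy. It read 39.3, 39.6 and 42.2 FPKM in WT and 3.27, 3.03 and 3.14 FPKM in p53-deficient libraries. The p53-deficient libraries lay close together, and the lowest WT library was 12.0-fold above the highest of them. The log2 change was -3.32 (SE 0.0399), with the smallest adjusted p of the 10 genes (limma, 2.26e-08). Its difference from Phlda3 in log2 change, -0.14, was within the spread of the libraries (exact permutation p = 0.2).

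Its partners include the kinase HIPK2 and the LC3 family. Of 15 genes of the list of TP53INP1 partners and autophagy, 9 were lower, 2 higher and 4 did not pass, none reached 2-fold, and the median was -0.14. After median-ratio scaling 12 were lower and 1 higher. Hipk2 went from 2.81 to 2.07 FPKM (-0.31) and Trp53inp2, the paralog, from 6.41 to 5.55 FPKM (-0.18). The Trp53inp2 call was lost with quantile normalisation, with the replicate block, and without WT library 1, WT library 2 or p53-deficient library 1 (limma adjusted p from 0.0568 to 0.0730). The LC3-family genes split: Gabarap went from 48.1 to 32.8 FPKM (-0.54) and Gabarapl2 from 76.1 to 51.9 FPKM (-0.55), while Map1lc3a (27.4 and 25.2 FPKM) and Map1lc3b (15.2 and 15.0 FPKM) did not pass. Both were called lower after median-ratio scaling and quantile normalisation. Map1lc3a was called lower also at a minimum mean FPKM of 5 (limma adjusted p = 0.0435), with the replicate block (0.0376) and without WT library 3 (0.00816).

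Zmat3 (ENSMUSG00000027663, chr3:32334792-32366014, minus strand) encodes a zinc finger protein that binds RNA and steers splicing and mRNA stability. It was at 13.6, 13.6 and 13.8 FPKM in WT and at 2.29, 2.27 and 2.18 FPKM in p53-deficient libraries. The spread was small in both groups, and the change of -2.18 (SE 0.0346) had a limma adjusted p of 6.15e-08. Its long transcript gave 9004 WT reads and 1290 p53-deficient reads. Stretches of 105 to 142 bases, at most 1.82% of its transcript, match transcripts of 4 other genes at 95% identity or more and the treatment of multiply matching reads is not stated in any source at hand. Among its relatives Zmat2, a spliceosome protein, went from 52.8 to 59.4 FPKM (0.17), past the test. Zmat4 went from 0.126 to 0.962 FPKM (0.80), 7.64-fold by mean FPKM, and also passed. Its WT level lay under the filter of 0.5 FPKM, so Zmat4 was tested only because of its p53-deficient level. Zmat5, at 10.8 and 10.4 FPKM, did not pass, though it was called lower after median-ratio scaling. Zmat1 was below the filter, at 0.155 and 0.192 FPKM.

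Perp and Ei24 are membrane proteins. Perp (ENSMUSG00000019851, chr10:18845020-18857073, plus strand) is a tetraspan protein of the PMP22 family that sits in desmosomes and was found as an effector of p53-dependent death. It read 17.9, 17.7 and 18.0 FPKM in WT and 3.14, 2.26 and 2.32 FPKM in p53-deficient libraries. The first p53-deficient library stood above the other two, and all 3 were far under the WT band. The log2 change was -2.41 (SE 0.0922, limma adjusted p = 2.00e-06), and the WT read level was 6.83-fold higher (95% exact interval 6.0 to 7.81, counting error only).

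Relatives of Perp and the desmosome genes went both ways. Of 10 listed, 9 were tested, 4 were lower and 5 higher, with a median of 0.17, and median-ratio scaling left 4 of each. Pmp22, the family's namesake, a myelin protein, fell from 14.5 ± 0.263 to 1.60 ± 0.0345 FPKM (log2 change -2.57, limma adjusted p = 3.57e-08), and Tmem47, also of that family, from 18.6 to 9.97 FPKM (-0.84). Among the desmosome genes Dsp, which encodes desmoplakin, went from 4.34 to 2.24 FPKM (-0.72). Jup, or plakoglobin, went up from 22.9 to 42.9 FPKM (0.88), Pkp2 from 4.90 to 7.45 FPKM (0.52) and Pkp3 from 1.01 to 2.01 FPKM (0.58).

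Ei24 (ENSMUSG00000062762, chr9:36779159-36797393, minus strand) encodes a protein of the endoplasmic reticulum that was found as an etoposide-induced gene and is needed for autophagy. It stood at 25.7, 25.5 and 25.0 FPKM in WT and at 9.45, 9.07 and 9.48 FPKM in p53-deficient libraries. The groups were far apart beside their spread. The log2 change was -1.35 (SE 0.0291, limma adjusted p = 1.97e-07). Over 6.66% of its exon length Ei24 overlaps Gm26787 on the opposite strand, which was listed at 0.194 and 0.141 FPKM.

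Pidd1 is the scaffold of the PIDDosome, which joins PIDD1, the adaptor RAIDD (gene Cradd) and caspase-2, and which answers to extra centrosomes and so to failed cell division. Pidd1 (ENSMUSG00000025507, chr7:141438113-141444025, minus strand) read 9.04, 8.69 and 8.63 FPKM in WT and 4.32, 3.99 and 4.01 FPKM in p53-deficient libraries. The groups did not overlap, and the first library was the highest in both. The log2 change was -0.94 (SE 0.0420, limma adjusted p = 4.01e-06), short of 2-fold on the log2(FPKM + 1) scale, while the ratio of mean FPKM was 2.14. Neither partner passed: Cradd was at 1.34 ± 0.0945 and 1.37 ± 0.327 FPKM (log2 change 0.01, limma adjusted p = 0.939) and Casp2 at 3.30 ± 0.105 and 3.62 ± 0.113 FPKM (0.10, limma adjusted p = 0.0859). After quantile normalisation Casp2 was called higher. The difference between the scaffold and its partners was not tested.

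Abhd4 is a lipase that removes acyl chains from N-acyl phospholipids, a step in the making of N-acylethanolamines such as anandamide, and it has been linked to the death of detached cells. Abhd4 (ENSMUSG00000040997, chr14:54254188-54270637, plus strand) read 20.9, 20.4 and 22.3 FPKM in WT and 8.05, 7.86 and 8.0 FPKM in p53-deficient libraries. The third WT library was the highest, and the p53-deficient libraries lay close together. The log2 change of -1.31 (SE 0.0380, limma adjusted p = 6.58e-07) differed from that of Ei24 by less than the spread of the libraries (exact permutation p = 0.4). Of 7 relatives and enzymes of the same lipids 6 were tested, with 4 lower, 1 higher and a median of -0.26, none by 2-fold on the log2(FPKM + 1) scale. Abhd5, the lipase cofactor known as CGI-58, fell from 4.21 to 1.72 FPKM (-0.94). Abhd12 rose from 12.3 to 14.2 FPKM (0.19), a call lost after median-ratio scaling. Napepld, the enzyme of the parallel route, did not pass at 3.61 and 3.22 FPKM. It was called lower after median-ratio scaling, with voom (limma adjusted p = 0.0404), with no variance trend (0.0399) and without p53-deficient library 2 (0.0266).

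**Figure D3:**
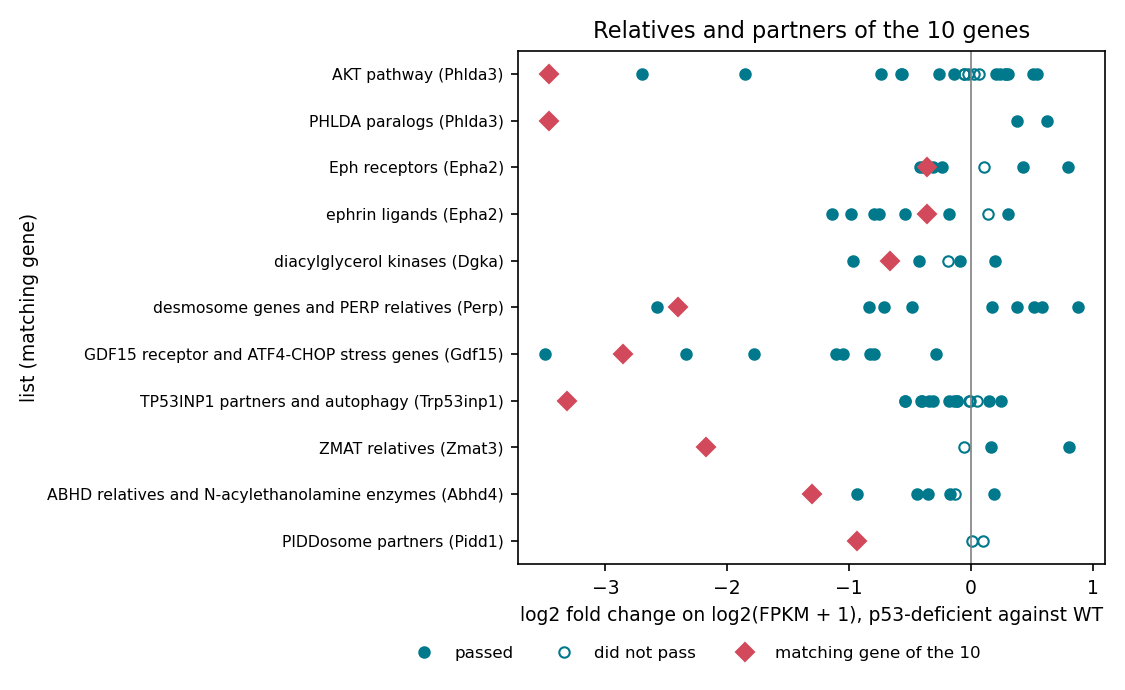
Log2 fold change on log2(FPKM + 1), p53-deficient against WT, of the tested genes of each list of relatives and partners, filled where limma's adjusted p was under 0.05 and open where it was not, with the matching gene of the 10 as a diamond. Most lists lie around 0, though the ephrins have a median of -0.65. The diamonds of Phlda3, Trp53inp1, Gdf15, Perp and Zmat3 lie far to the left, as do single list genes such as Inpp5d (-2.70), Pmp22 (-2.57) and Nupr1 (-3.49). The ATF4-CHOP list lies to the left as a whole (median -1.08).

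The order of the 10 genes by level changed with genotype. In WT it ran Phlda3, Epha2, Trp53inp1, Ei24, Abhd4, Perp, Zmat3, Gdf15, Pidd1 and Dgka, and the libraries of neighbours overlapped only between Epha2 and Trp53inp1. In the p53-deficient cells it ran Epha2, Ei24, Abhd4, Phlda3, Pidd1, Trp53inp1, Perp, Zmat3, Dgka and Gdf15, and the libraries overlapped between Phlda3 and Pidd1 and between each pair of neighbours from Trp53inp1 to Dgka. Among all tested genes Phlda3 went from rank 903 to rank 7751 by level, and Trp53inp1 from rank 1472 to rank 9072. Summed over the 10 genes the level was 246, 243 and 248 FPKM in WT and 70.6, 67.0 and 68.7 FPKM in p53-deficient libraries.

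By size of change, the libraries' ratios of neighbours did not overlap in 7 of 9 pairs on the log2(FPKM + 1) scale (exact permutation p = 0.1, the smallest possible). The order was taken from these same values, so a lack of overlap does not show that neighbours differ. The other pairs were Phlda3 with Trp53inp1 and Ei24 with Abhd4. On log2 FPKM without a pseudocount Gdf15 came first, and Gdf15, Phlda3 and Trp53inp1 were not apart (exact permutation p = 0.7 and 0.8). Nor were Perp with Zmat3, Ei24 with Abhd4 and Pidd1 with Dgka (exact permutation p = 0.4, 0.5 and 0.2).

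Other p53 targets were set beside the 10 genes. Of 46 other targets 45 were tested, and 37 were lower, 3 higher and 5 did not pass, 25 fell by 2-fold or more, and the median was -1.12. The largest falls were those of Eda2r, a receptor of the TNF family (23.5 to 0.387 FPKM, log2 change -4.14), Ddit4, an mTOR inhibitor (84.4 to 6.61 FPKM, -3.49), Psrc1, a spindle protein (42.9 to 2.94 FPKM, -3.48), and Ccng1, cyclin G1 (115 to 9.95 FPKM, -3.40). The p53-deficient level of Eda2r lay under the filter of 0.5 FPKM, so it was tested only because of its WT level. Cdkn1a, the cell cycle inhibitor p21, went from 87.6 ± 0.523 to 9.66 ± 0.645 FPKM (-3.06) and Mdm2, the ubiquitin ligase of p53, from 49.8 ± 0.890 to 13.9 ± 0.629 FPKM (-1.77). Tigar, at 22.7 and 21.8 FPKM, did not pass (limma adjusted p = 0.0672), though it was called lower after median-ratio scaling (limma adjusted p = 0.00164) and quantile normalisation (0.00281).

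**Figure D4:**
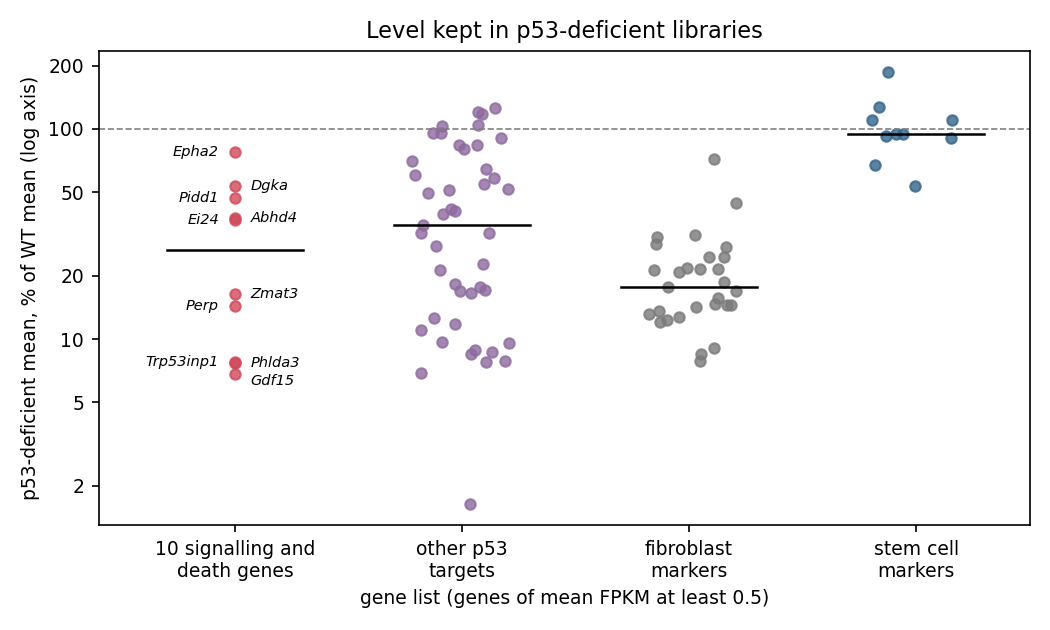
Mean FPKM in p53-deficient libraries as a percentage of the WT mean (log axis) for the tested genes of 4 lists, each point a gene and each line a list's median, with a dashed line at 100%. Phlda3, Trp53inp1 and Gdf15 lie below every fibroblast marker, with Prrx1 at 7.85% just above Trp53inp1 at 7.80%, a difference that was not tested. Epha2 at 77.3% lies above all fibroblast markers.

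Because fibroblast markers fell with genotype, the 10 genes were also set against them. Phlda3, Trp53inp1 and Gdf15 kept a smaller share of their mean WT level than each of the 29 tested fibroblast markers. The margin was small for Phlda3 (7.66%) and Trp53inp1 (7.80%) beside Prrx1 (7.85%) and Twist2 (8.49%), and it was not tested. The p53-deficient libraries of Phlda3 ran from 3.83 to 5.31 FPKM, a relative spread wider than its margin to Prrx1. Perp kept more than 9 of the 29 markers, Zmat3 more than 13, Ei24 and Abhd4 more than 27, Pidd1 and Dgka more than 28 and Epha2 more than all 29. Per FPKM of the 10 defining markers, Phlda3 stood at 14.8%, 14.4% and 14.1% in WT and 7.41%, 6.03% and 8.13% in p53-deficient libraries, a ratio of 0.498. Col1a1 alone made up 210 of the 426 FPKM of these markers in WT and 30.9 of 65.3 FPKM in p53-deficient libraries. Col1a1 kept 14.7% of its WT level, more than Prrx1 and Twist2, and ratios to single markers were not computed. Trp53inp1 and Gdf15 had ratios of 0.509 and 0.443, with every p53-deficient library below every WT library. The ratio was 0.938 for Perp, with overlap, and 1.07 for Zmat3. For the other genes it was above 1, from 2.40 for Ei24 to 5.04 for Epha2. All 32 fibroblast markers summed to a mean of 447 FPKM in p53-deficient libraries, of which Vim, Lgals1 and Fn1 held 117, 111 and 46.0 FPKM. These genes kept 72.3%, 28.4% and 30.4% of their WT level, more than most of the markers, and so held up that sum. Per FPKM of all 32 fibroblast markers the ratios were lower, at 0.320 for Phlda3, 0.327 for Trp53inp1 and 0.284 for Gdf15. On that measure Perp, at 0.602, and Zmat3, at 0.688, also had every p53-deficient library below every WT library, while Ei24 stood at 1.54 and Epha2 at 3.24. The part of the fibroblast markers and of the Y-linked genes in the falls of the 10 genes was not tested.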

How the data were processed

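RNA was sequenced from 6 libraries of mouse embryonic stem cells, 3 WT haploid and 3 p53-deficient haploid. Per the labels' protocols, mRNA was purified with poly-T beads and the NEBNext Ultra kit made the libraries, with no mention of strand marking. The authors deposited FPKM per gene and library with coordinates and gene lengths. HISAT2 2.0.5, featureCounts 1.5.0-p3 and build mm10 are named, without roles, per the submitters' processing notes. Reads per gene were rebuilt from FPKM and gene length and came out whole in 100% of values above 0 (tolerance 0.001).

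Genes with a mean of 0.5 FPKM or more entered the test, as log2(FPKM + 1). WT and p53-deficient libraries were compared over all such genes with limma 3.58.1 in R 4.3.3 (two-sided, with a variance trend and Benjamini-Hochberg adjustment), with calls at an adjusted p under 0.05. A log2 change on this scale understates the change of low genes. The script was tested on simulated data. Errors beside means are SD over 3 libraries. Exact intervals of read ratios were computed with SciPy 1.17.1, and copies were sought with BLAST+ 2.17.0 at 95% identity over 100 bases or more.

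The 10 genes, the gene lists and the tests were chosen with earlier results of these data known. The rule named the 10 genes, Trp53, Cdkn1a and Mdm2, from each list up to 4 called genes changed by 2-fold or more and the most abundant gene that did not pass, and lists of 4 or fewer genes whole. Other genes of the lists that the text names, such as Akt1, Atf4, Ephb4, Dgkh, Gabarap, Jup and Abhd5, were chosen after their values were seen. Replicate numbers did not pair the libraries. The alternatives were other pseudocounts, filters and scalings, a replicate block, voom, no variance trend, and each library left out in turn.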

Additional observations from a re-analysis of the deposited data

How the results depend on the processing

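All 10 genes stayed lower and past the threshold under each of 14 alternatives in which they were tested, 139 results in all, and the largest adjusted p (limma) was 0.00237, for Dgka. At a minimum mean FPKM of 5 Dgka was not tested, the median log2 change of the other 9 genes was -2.18 in place of -1.76, and 2268 genes were called lower in place of 4733. The median was -1.99 with a pseudocount of 0.1, -1.85 after median-ratio scaling and -2.04 with voom, and under these 3 settings 8 genes in place of 7 fell by 2-fold or more. Over all tested genes falls of 2-fold or more numbered 1692 with the pseudocount of 0.1, 1077 after median-ratio scaling, 1825 with voom and 414 at the minimum of 5, in place of 954. Of 861 results of the 63 named genes under the alternatives, 830 kept their direction and side of the threshold, 20 came to pass it and 7 no longer passed it. The other 4 changed sign without passing. Cradd was at -0.049 after median-ratio scaling and ranged from -0.097 to 0.092 with 1 library left out, below 0 without WT replicate 1 or p53-deficient replicate 1. Pik3r2 ranged from -0.049 to 0.012 with 1 library left out, above 0 without p53-deficient replicate 2. The cause was not tested.

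The replicate numbers of the labels did not pair the libraries: deviations of same-numbered libraries correlated at -0.03, 0.02 and -0.02. With a replicate block 10 genes were called lower and 7 fell by 2-fold or more, as did 951 of all tested genes, and 4579 tested genes were called lower and 5187 higher. Low read counts limit Gdf15 in the p53-deficient group, where 76 reads were behind its level, and the groups of 3 libraries limit all tests of single genes.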
